A study of Zea mays with 6 samples.

Results

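MicroRNA precursor genes were described in the aerial parts of young maize seedlings after a short auxin treatment. The members are the rows of the deposited FPKM table whose identifier contains zma-MIR, a rule that uses names and no measured value. It found 154 of 39283 rows, or 0.392% of the table, which fall into 28 families by the number after MIR. RefSeq's maize gene table (assembly Zm-B73-REFERENCE-NAM-5.0, used for names alone) holds 152 of the 154 names, each with the biotype miRNA.

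The IAA group consisted of the collected shoots of 7-day-old greenhouse seedlings of the inbred line B73, kept for 30 min in the auxin indole-3-acetic acid (IAA) in 1% DMSO. The DMSO group was kept for 30 min in 1% DMSO alone. The sample labels give the IAA dose as 100 mM, whereas the methods of the study give the same number in μM. Each treatment had 3 replicates of 3 plants, but cuffdiff merged the replicates, so that every row has a single value for IAA and another for DMSO. These values are FPKM, fragment counts divided by the length of the transcript and by the depth of the library. Without replicate values no spread is known and no test was run, so every difference below is a difference between 2 pooled values with no replicate check. The number of reads per library is unknown as well.

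MicroRNA genes are transcribed into long primary transcripts, which fold into a hairpin and are cut by a dicer-like enzyme to release the short mature microRNA. The mature microRNA guides an argonaute protein to messenger RNAs with a matching site. Several plant families act within auxin signalling. The microRNAs miR160 and miR167 target auxin response factor (ARF) transcripts, miR390 starts the production of small RNAs against other ARF transcripts, and miR393 targets the TIR1/AFB auxin receptors. RNA-seq of this kind reads primary transcripts or precursors, and the mature microRNAs were not measured here. The roles named below are those known for these families in plants, mostly from Arabidopsis and rice.

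Of the shoot markers, 6 of 7 were matched by name, and they lay between 2.43 and 2726 FPKM after IAA and between 2.61 and 1741 FPKM in DMSO, with the C4 enzyme genes Ppdk1, pep1 and me3 and the Rubisco gene ssu1 the highest, with no value under that of me3 in DMSO, 570 FPKM. Of the root markers, 2 of 5 were matched, and rth3, a root hair gene, had 8.70 FPKM after IAA and 11.1 FPKM in DMSO, while rtcs1 had 0.220 and 0.0530 FPKM. The kernel markers o2 and FL2 were listed at 0 in both treatments, sh2 had 0.781 FPKM after IAA and 0.873 FPKM in DMSO, and bt2 had 16.8 and 17.9 FPKM. The FPKM values of the table sum to 785743 after IAA and 821595 in DMSO.

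Most microRNA precursor rows were listed at 0. Only 40 of the 154 rows, or 26.0%, had a value above 0 in at least 1 treatment, against 80.9% of the 39129 other rows. Among the 40, 19 were above 0 in both treatments, 9 after IAA alone and 12 in DMSO alone. A value in 1 treatment only was found for 52.5% of the detected microRNA rows, against 6.45% of the other detected rows, most of which are long. On loci from 150 bp to under 300 bp the shares were closer, 27.3% of 11 microRNA rows and 20.3% of 202 other rows, and under 150 bp they were 85.7% of 14 microRNA rows and 1 of only 2 other rows. From 300 bp to under 1000 bp they were 33.3% of 6 microRNA rows and 16.3% of 3689 other rows. At 1000 bp and over they lay far apart, at 44.4% of 9 microRNA rows and 5.04% of 27745 other rows. The table marks whether cuffdiff had enough alignments for a test, and this mark was OK for 19 microRNA rows, or 12.3%, against 63.6% of the other rows. The microRNA rows summed to 215 FPKM after IAA and 288 FPKM in DMSO, which is 0.0274% and 0.0351% of the table.

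Detection was spread unevenly over the families, as the bar plot of rows by family shows. MIR156, whose microRNA targets SBP-box genes and keeps the shoot in its juvenile phase, had 7 of 11 rows above 0. MIR169, the family with the most rows and a regulator of NF-YA transcription factors, had 5 of 17. MIR164, MIR167 and MIR396 had 3 of 8 rows each, where miR164 targets NAC genes of organ boundaries and miR396 targets growth-regulating factor genes. These counts are for names, and copies within a family can be so alike that reads are split between them.

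At the other end, 8 families with 29 rows were listed at 0 throughout. They include all 15 rows of MIR395, a family known for its induction by sulphate starvation, and all 4 rows of MIR172, which represses AP2-like genes. All 4 rows of MIR2275, which triggers small RNAs in anthers, were at 0 too. MIR2118, another trigger of reproductive small RNAs, had 1 of 7 rows above 0, MIR2118d, listed at 0 after IAA and at 0.927 FPKM in DMSO. MIR399, which is induced by phosphate starvation, had 1 of 10, MIR399j, listed at 0 after IAA and at 0.960 FPKM in DMSO. A row at 0 says only that nothing was listed there, since the depth is unknown.

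**Figure D1:**
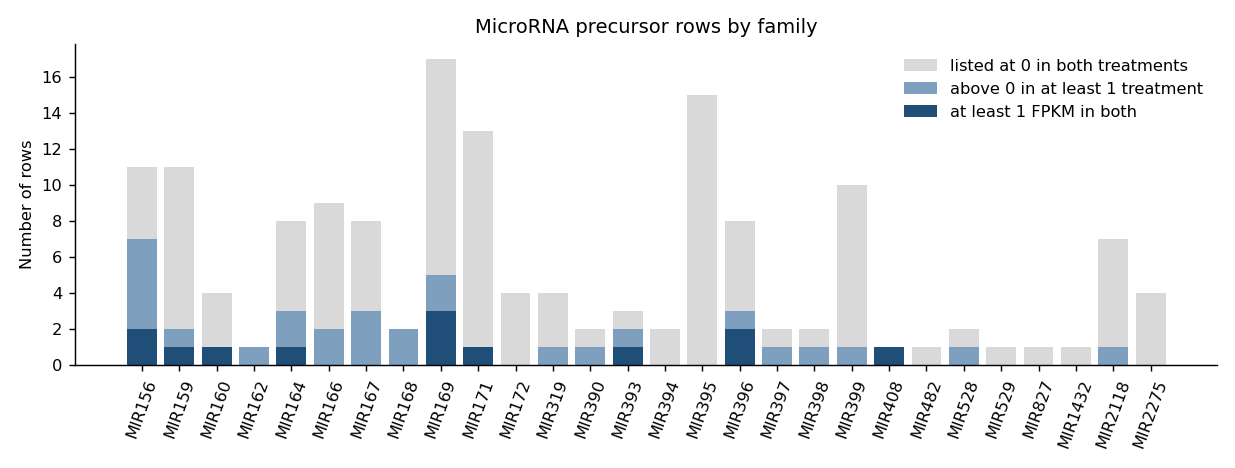
Number of microRNA precursor rows (vertical axis) in each of the 28 families (horizontal axis). The bars of a family are overlaid from 0, with the rows at 0 in both treatments left in grey, the rows above 0 FPKM in at least 1 treatment in light blue and the rows at 1 FPKM or more in both treatments in dark blue. MIR395 had 15 rows and none detected, whereas MIR156 had 7 of 11 rows detected.

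The rows were short. The listed locus ran from 65 to 14117 bp with a median of 137.5 bp, and 108 rows had a locus under 300 bp. The other 46 loci, of 325 bp or more, were each identical to the locus of another gene row, so that these lengths are those of a longer gene model and not of the hairpin. Positions given below for such rows, among them MIR160d, MIR164b, MIR169c and MIR171f, are likewise those of the shared locus. A further 4 rows share a locus in pairs, MIR169e with MIR169h and MIR396b with MIR396h. The 104 rows that overlap no other row had a median locus of 119 bp and none above 270 bp.

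Detection was set beside locus length. Under 150 bp, 14 of 83 microRNA rows (16.9%) and 2 of 12 other rows (16.7%) were detected. From 150 bp to under 300 bp, these numbers were 11 of 25 (44.0%) and 202 of 542 (37.3%). Below 300 bp the shares of both kinds thus lay close together, although only 12 other rows are shorter than 150 bp. At 1000 bp and over, 9 of 29 microRNA rows (31.0%) and 27745 of 31965 other rows (86.8%) were detected, the microRNA loci there being the shared ones.

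A short row can carry a high FPKM on few fragments, because FPKM divides by length. The lowest value above 0 among microRNA rows under 150 bp was 0.927 FPKM, while among other rows of 1000 bp and over it was 9.97e-05 FPKM. Of the 14 microRNA rows detected under 150 bp, 12 had a value in 1 treatment only and 4 of the 83 were marked OK. The median of the mean FPKM over both treatments was 2.74 for the 40 detected microRNA rows and 5.19 for the other detected rows.

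**Figure D2:**
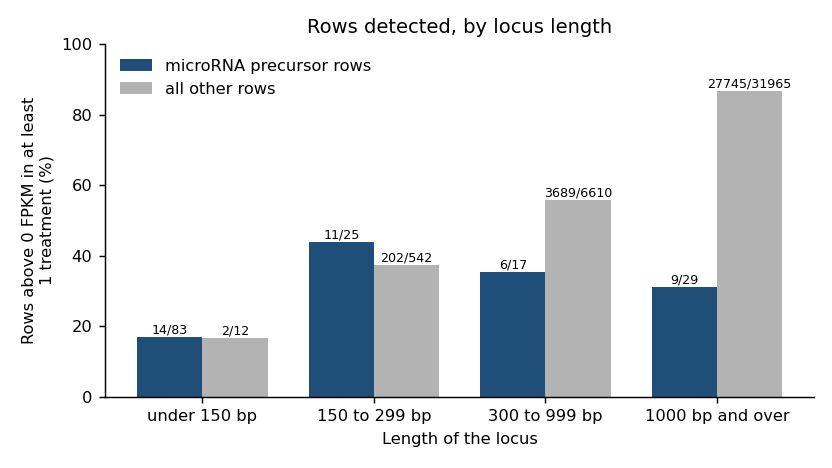
Share of rows above 0 FPKM in at least 1 treatment (vertical axis, percent) by length of the locus, for microRNA precursor rows (blue, left) and all other rows (grey, right), with the number detected of the number listed above each bar. Under 300 bp both kinds lie close together, at 16.9% and 16.7% and at 44.0% and 37.3%, whereas at 1000 bp and over they lie at 31.0% and 86.8%.

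Rows of the same family often lay side by side. With a distance of at most 10 kb between neighbours, 42 rows formed 16 groups, each of a single family. Of the 42 rows, 5 (11.9%) were detected, against 35 of the 112 rows outside such groups (31.2%). The 42 include all 15 MIR395 rows, none of them detected, so this family weighs heavily in the lower share. The groups MIR169e with MIR169h and MIR396b with MIR396h are each a single locus listed under different names. The group with the most rows holds 8 MIR395 rows on chromosome 2, from 6322890 to 6334791 in B73v3 coordinates, and further MIR395 groups of 4 and 3 rows lie on chromosome 10. MIR159, a family that targets MYB genes of the gibberellin response, has groups of 3 and 2 rows on chromosome 8 between 10528417 and 10589521. All of these rows were listed at 0. The one group in which every row was detected is the pair MIR396a and MIR396e on chromosome 4, from 173324333 to 173329649.

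A ratio of IAA over DMSO was read only for the 13 rows with at least 1 FPKM in both treatments, which come from 9 families. Nearest to this limit, MIR396a lay inside it with 1.23 FPKM after IAA, while MIR156g lay outside with 0.941 FPKM after IAA and MIR167g with 0.734 FPKM in DMSO. The 13 rows ranged from 1.23 to 28.6 FPKM after IAA and from 1.67 to 56.9 FPKM in DMSO, with medians of 9.40 and 11.4 FPKM. At least 2-fold higher after IAA were 2 of them, against 0.704% of the 22026 rows of the table with both values at that level, and at least 2-fold lower were 6, against 1.05%. In the 115 other rows with a locus under 300 bp and both values at that level, 7.83% were 2-fold higher and 21.7% 2-fold lower. Of the 13, only the 6 that share no locus were under 300 bp. Among these 6, 1 was at least 2-fold higher and 3 were at least 2-fold lower. At a limit of 1.5-fold, 4 of the 13 were higher, against 3.65% of the 22026 rows, and the same number as at 2-fold, 6, was lower, against 4.56%. Without regard to sign, the median log2 ratio was 1.10 for the 13 rows, 0.67 for the 115 short rows and 0.18 for the 22013 rows that are not microRNA rows.

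As a set, the 13 rows had no settled direction. The log2 ratio was above 0 for 7 and below 0 for 6, with a median of 0.23, against -0.04 over the rows that are not microRNA rows and -0.14 over the short ones. Over the 6 rows of the 13 that share no locus the median was -0.44, and over all 19 rows above 0 in both treatments it was -1.10. It was -0.43 for the 12 rows marked OK, a choice made after the values were seen.

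**Figure D3:**
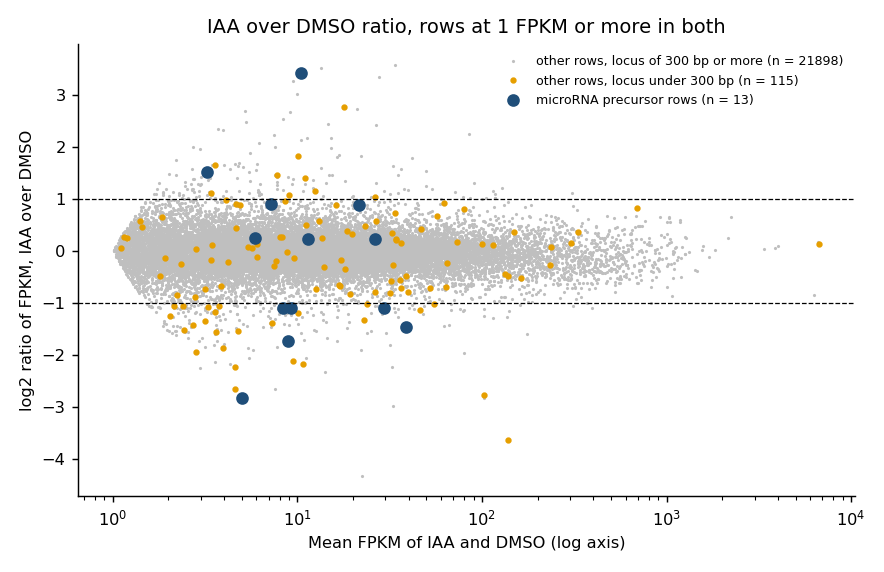
Log2 ratio of FPKM, IAA over DMSO (vertical axis), against the mean FPKM of both treatments (horizontal log axis) for rows at 1 FPKM or more in both treatments. MicroRNA precursor rows are large blue points (n = 13), other rows with a locus under 300 bp orange points (n = 115) and the remaining rows grey points (n = 21898), and dashed lines mark a 2-fold difference. Of the 13 microRNA rows, 8 lie outside the dashed lines, 2 above and 6 below.

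The auxin receptor regulator MIR393 showed the highest ratio. MIR393a, on chromosome 2 from 754231 to 754356, had 19.2 FPKM after IAA and 1.79 FPKM in DMSO. That is 10.7-fold higher after IAA, a log2 ratio of 3.43. The DMSO value is low for so short a locus, beside 0.927 FPKM, the lowest value above 0 among microRNA rows under 150 bp. With a pseudocount of 1 FPKM the log2 ratio of MIR393a was 2.86. In whole shoots, as in all rows that follow, a different number of cells and a different amount of RNA per cell cannot be told apart. MIR393c, on chromosome 10 from 148152652 to 148152748, had 14.7 FPKM after IAA and was listed at 0 in DMSO, so no fold is given, and it was not marked OK, unlike MIR393a. MIR393b was listed at 0 in both treatments. Both detected rows of the family were thus higher after IAA, on loci of 126 and 97 bp that overlap no other row.

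The regulators of auxin response factors went in different directions. MIR160d, on chromosome 1 from 283652188 to 283652955, had 4.80 FPKM after IAA and 1.67 FPKM in DMSO, a log2 ratio of 1.52. However, MIR160d was not marked OK and its 3 relatives MIR160c, MIR160f and MIR160g were listed at 0. The gene row with the same locus, GRMZM2G098377, had 0.170 FPKM after IAA and 0.274 FPKM in DMSO, a log2 ratio of -0.69. In MIR167, MIR167e and MIR167f were listed at 0 after IAA, and in DMSO they had 14.8 and 10.2 FPKM. MIR167g, in contrast, had 1.74 FPKM after IAA and 0.734 FPKM in DMSO. The family summed to 1.74 FPKM after IAA and 25.7 FPKM in DMSO, with 2 of its 3 detected rows at 0 after IAA. MIR390a, on chromosome 1 from 292655931 to 292656111, had 0.576 FPKM after IAA and 1.96 FPKM in DMSO, and MIR390b was at 0.

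MIR164 differed little between the treatments in its most abundant row. MIR164b, on chromosome 6 from 141801242 to 141803494, had 12.4 FPKM after IAA and 10.6 FPKM in DMSO, a log2 ratio of 0.23. MIR164d had 0.255 FPKM after IAA and 0.765 FPKM in DMSO. MIR164c was listed at 0 after IAA and had 0.240 FPKM in DMSO, and the other 5 rows of the family were at 0. These low values lie under the limit set for a ratio.

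The lowest ratio among the 13 belonged to MIR396, and its neighbouring rows on chromosome 4 were both lower after IAA. MIR396a had 1.23 FPKM after IAA and 8.74 FPKM in DMSO, a log2 ratio of -2.83. MIR396e, with a locus of 166 bp from 173329484 to 173329649 that overlaps no other row, had 18.8 FPKM after IAA and 40.2 FPKM in DMSO, a log2 ratio of -1.10. MIR396f on chromosome 5 went the other way, with 2.12 FPKM after IAA and a listed value of 0 in DMSO. Unlike MIR396a and MIR396e, it was not marked OK, and its value is low for a locus of 117 bp. The detected rows thus did not share a direction, but the exception is this row alone.

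MIR169 held the row with the most FPKM in each treatment. MIR169c, on chromosome 2 from 11307186 to 11308450, had 20.6 FPKM after IAA and 56.9 FPKM in DMSO, a log2 ratio of -1.47. MIR169i, on chromosome 4 from 47269335 to 47269525, had 28.6 FPKM after IAA and 24.4 FPKM in DMSO, and MIR169j had 6.36 and 5.36 FPKM, with log2 ratios of 0.23 and 0.25. The family sum of 59.0 FPKM after IAA and 89.0 FPKM in DMSO differed mainly through MIR169c. MIR169a was listed at 0 after IAA and had 2.27 FPKM in DMSO, and MIR169e had 3.45 FPKM after IAA and a listed 0 in DMSO. MIR169h, which has exactly the locus of MIR169e, was at 0 in both treatments.

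MIR156 was even as a family and uneven row by row. Its rows summed to 41.6 FPKM after IAA and 40.8 FPKM in DMSO. MIR156f, on chromosome 2 from 180843096 to 180843262, had 28.1 FPKM after IAA and 15.2 FPKM in DMSO, a log2 ratio of 0.89. MIR156e, also on chromosome 2, from 32121369 to 32121494, had 5.31 FPKM after IAA and 11.4 FPKM in DMSO, a log2 ratio of -1.11. Of the others, MIR156g had 0.941 FPKM after IAA and 9.14 FPKM in DMSO. MIR156d and MIR156k had 3.84 and 3.45 FPKM after IAA and a listed 0 in DMSO, while MIR156i and MIR156j were at 0 after IAA and had 3.47 and 1.51 FPKM in DMSO. Rows of the same family thus lay on either side.

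Of the remaining rows with a ratio, MIR159f, on chromosome 3 from 25492248 to 25492462, had 4.10 FPKM after IAA and 13.6 FPKM in DMSO, a log2 ratio of -1.73. MIR171f, whose microRNA targets GRAS genes of the scarecrow-like type, lies on chromosome 5 from 8551677 to 8552387 and had 5.89 FPKM after IAA and 12.6 FPKM in DMSO, a log2 ratio of -1.10. MIR408b, from a copper-responsive family, had 9.40 FPKM after IAA and 5.02 FPKM in DMSO, a log2 ratio of 0.90 that stays under 2-fold. MIR166a, from a family that restricts class III HD-ZIP genes of leaf polarity, was outside the limit with 0.663 FPKM after IAA and 4.72 FPKM in DMSO. MIR319d, which belongs to a family against TCP genes, had 0.516 FPKM after IAA and 0.275 FPKM in DMSO, and MIR159a had 0.0400 FPKM after IAA and was at 0 in DMSO.

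**Figure D4:**
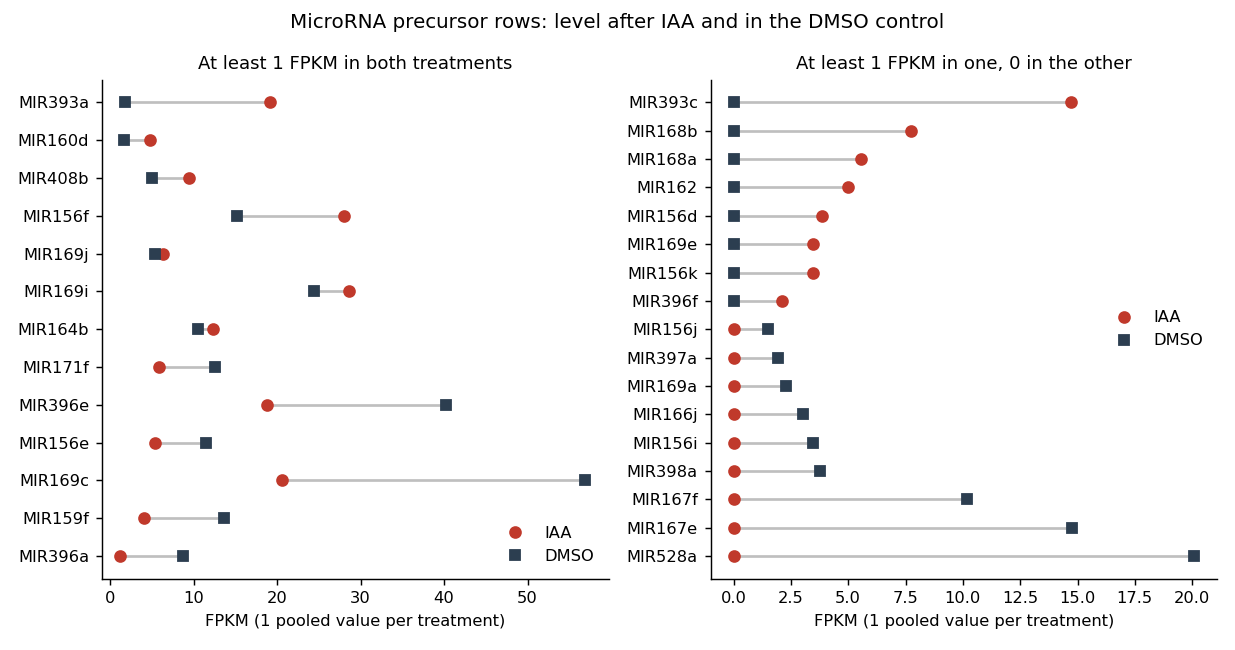
FPKM after IAA (red circles) and in DMSO (dark squares) for microRNA precursor rows at 1 FPKM or more in both treatments (left, 13 rows ordered by ratio) and at 1 FPKM or more in one treatment and 0 in the other (right, 17 rows). Each point is 1 pooled value over the replicates, without error bars. MIR393a stands at the top on the left with 19.2 FPKM after IAA against 1.79 FPKM in DMSO, and MIR169c shows the widest gap, with 20.6 and 56.9 FPKM.

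Of the 34 microRNA rows at 1 FPKM or more in either treatment, 17 were listed at 0 in the other, of which 8 (23.5%) had their value after IAA and 9 (26.5%) in DMSO. In the whole table only 23 rows were of this kind, so that 6 were not microRNA rows. Over the table, the share was 0.0393% for a value after IAA alone and 0.0611% for a value in DMSO alone, of 22916 rows. Among 141 other rows with a locus under 300 bp the shares were 0.709% and 1.42%. These 141 rows are not matched by length to the 17. Of the 21 microRNA rows above 0 in 1 treatment only, 12 had a locus under 150 bp, where just 2 other rows were detected. Some of the 17 had a longer, shared locus, such as MIR162 with 2780 bp. Several of the 17 values were low for so short a locus, such as 1.51 FPKM in DMSO for MIR156j and 2.12 FPKM after IAA for MIR396f, beside the 0.927 FPKM that was the lowest value above 0 among microRNA rows under 150 bp.

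Of the families with more than 1 such row, MIR167 and MIR168 had theirs in the same treatment, while MIR156 and MIR169 had rows of either kind. Both rows of MIR168, which targets the argonaute gene AGO1, were seen after IAA alone, with 5.58 FPKM for MIR168a and 7.72 FPKM for MIR168b. MIR162, which targets the dicer-like gene DCL1, had 4.998 FPKM after IAA and a listed 0 in DMSO. The row with the highest value in DMSO alone was MIR528a, from a family of monocots linked to copper proteins, on chromosome 1 from 6409248 to 6409370, at 0 after IAA and 20.1 FPKM in DMSO. MIR166j, MIR397a and MIR398a were likewise at 0 after IAA and had 3.02, 1.94 and 3.78 FPKM in DMSO, where miR397 targets laccases and miR398 copper/zinc superoxide dismutases. Of the 17 rows, only 3 were marked OK, MIR166j, MIR167e and MIR528a, each at 0 after IAA.

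The 46 rows that share their locus with another gene row allow the microRNA row to be set beside its partner. The partner was above 0 in at least 1 treatment for 35 of the 46, and the microRNA row for 15, in each case together with its partner. RefSeq names 10 of the partners, 6 as lncRNA and 4 as protein-coding. Where the partner alone was detected, 15 of 20 partners were under 1 FPKM in both treatments. MIR2275d and MIR399g were at 0 although their protein-coding partners GRMZM2G169694 and GRMZM2G018770 had 97.7 and 120 FPKM after IAA and 93.0 and 156 FPKM in DMSO. MIR397a shares its locus with GRMZM2G072808, which the name table lists as Laccase-17 and which had 24.3 FPKM after IAA and 19.2 FPKM in DMSO. The table does not give strand, so whether a partner is the primary transcript of the microRNA or runs opposite to it is not known here.

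The ratios of the partners were set beside those of the microRNA rows. How fragments on a shared locus were divided between its rows is not known here, so their values may not be independent. Of the 7 pairs whose microRNA row had at least 1 FPKM in both treatments, 6 had a partner at that level too, and none of these 6 partners reached a 2-fold difference, with log2 ratios from -0.83 to 0.51, against 3 of the 6 microRNA rows. For MIR164b and MIR169j the partner was the farther from 0, with log2 ratios of -0.54 and -0.48 against 0.23 and 0.25 for the microRNA rows. The log2 ratios had the same sign in 2 of the 6 pairs. MIR171f and its partner GRMZM2G521781 were alike, the partner having 1.11 FPKM after IAA and 1.98 FPKM in DMSO. The partner of MIR169c, GRMZM5G838907, had 2.45 FPKM after IAA and 3.88 FPKM in DMSO, a log2 ratio of -0.66 against -1.47 for the microRNA row. MIR396a and GRMZM2G178990 went in opposite directions, the partner having 1.58 FPKM after IAA and 1.11 FPKM in DMSO. For MIR164b, the lncRNA GRMZM2G390334 at the same locus had 15.4 FPKM after IAA and 22.4 FPKM in DMSO, whereas the microRNA row had 12.4 and 10.6 FPKM.

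**Figure D5:**
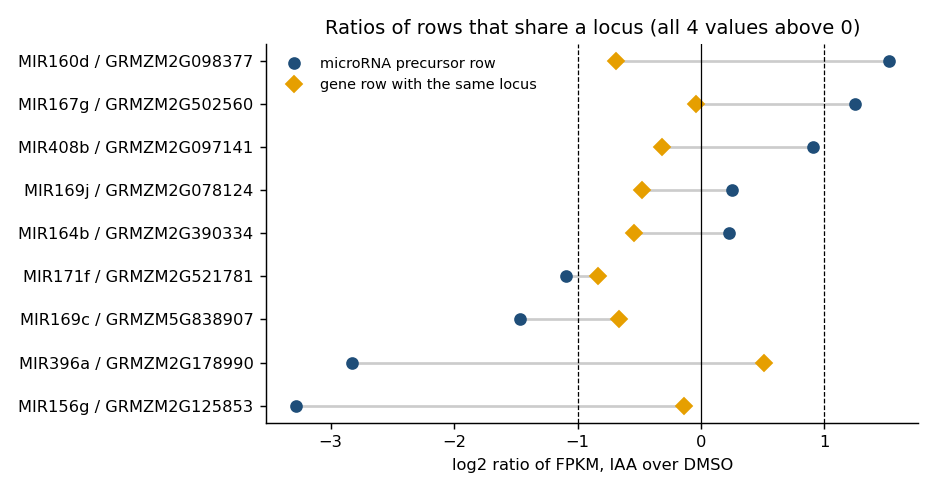
Log2 ratio of FPKM, IAA over DMSO (horizontal axis), for the 9 pairs of rows that share a locus and have values above 0 in both treatments, with the microRNA precursor row as a blue circle and the gene row of the same locus as an orange diamond. Dashed lines mark a 2-fold difference. The 9 diamonds lie within the dashed lines, whereas MIR160d, MIR167g, MIR171f, MIR169c, MIR396a and MIR156g lie outside them.

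The genes of the microRNA pathway were compared by name. Of the processing machinery, 6 rows were matched, those named dcl1, dcl3a and dcl4, which cut small RNAs from their precursors, and SGS3, which serves the tasiRNA pathway. All 6 had at least 1 FPKM in both treatments and log2 ratios between -0.23 and 0.12, with a median of 0.04. Symbols for argonaute, HEN1, HYL1 and HASTY genes were not matched.

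The target families were matched by name as well, and not by a site for the microRNA. Over 8 families, 67 rows had at least 1 FPKM in both treatments, with a median log2 ratio of 0.03, and 1 was 2-fold higher and none 2-fold lower after IAA. Over all 22026 rows of the table at that level, 0.704% were 2-fold higher and 1.05% 2-fold lower. The SBP-box genes (miR156 and miR529) had a median of -0.03 over 12 rows, and the ARF genes (miR160 and miR167) had -0.03 over 16 rows. The 1 row past 2-fold was an ARF gene, GRMZM2G390641, with 13.7 FPKM after IAA and 5.24 FPKM in DMSO. Growth-regulating factor genes (miR396) had a median of -0.12 over 15 rows and NF-YA genes (miR169) -0.13 over 7. The highest row of the former list, GRMZM2G102499, with 381 FPKM after IAA and 441 FPKM in DMSO, was taken in by name alone. No other row of that list was above 25.7 FPKM. Genes of the 14-3-3 family share the symbol GRF, so GRMZM2G102499 may not be a growth-regulating factor gene, although it is counted in the 15 and the 67. Positive medians were found for laccases (miR397) with 0.35 over 6 rows, TCP genes (miR319) with 0.31 over 7, AP2-like genes (miR172) with 0.20 over 3 and the class III HD-ZIP gene GRMZM2G109987 (miR166) with 0.11. TIR1/AFB and GAMYB genes were not matched by symbol.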

How the data were processed

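Reads were trimmed with trimmomatic, mapped to B73v3 with Tophat (TopHat2 2.1.1 in the submitters' notes) and compared with cuffdiff (Cuffdiff 2.2.1). The deposited values are FPKM, pooled by cuffdiff over the 3 replicates of a treatment, and the deposited table also holds cuffdiff's status mark (unit other), OK for tested rows and NOTEST for rows with too few alignments. The table's log2 fold changes, test statistics, p-values and q-values are the authors' own comparison and were not used. Libraries were stranded and Tophat ran with its default settings. The gene annotation and the library-type option given to cuffdiff are not given in the sources used here.

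Locus starts were raised by 1. Detected means above 0 FPKM in either treatment. Ratios are IAA over DMSO with no pseudocount, at 1 FPKM or more in both treatments, and 2-fold was the limit. No test was possible with 1 pooled value per treatment. Named rows were all those with a ratio, those at 1 FPKM or more in one treatment and 0 in the other, and the detected rows of MIR160, MIR164, MIR167, MIR390 and MIR393. Other rows and the partners were named after their values were seen. Members and lists were chosen with earlier results of these data known. Names in the lists came from the file and the RefSeq gene table. Genes of the 14-3-3 family, which share the symbol GRF, were left out where their alias is GF14, and lower-case arf symbols were left out. Alternatives were other limits, pseudocounts of 1 and 0.1 FPKM, centring, scaling and subsets of rows. Counting was tested on simulated data. Tables were handled with pandas 2.3.3 and numpy 2.4.6 and drawn with matplotlib 3.10.9 under Python 3.11.15. Mature microRNA sequences were not used here.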

Additional observations from a re-analysis of the deposited data

How the results depend on the processing

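No paired analysis was possible because cuffdiff had merged the replicates of each treatment, and for the same reason leaving out replicates and limma fits were not run. The count of 40 detected rows became 19 when a value above 0 in both treatments was required, by construction, and stayed within 1.5 times under the other limits. The 2 rows that were 2-fold higher after IAA became 4 with a fold of 1.5, 0 with at least 5 FPKM in both treatments, 1 without shared loci and 1 with rows marked OK. The 6 rows that were 2-fold lower became 10 with no minimum and 3 without shared loci. With 1 FPKM in either treatment and a 0 in the other counted, 11 of 34 rows were higher and 18 lower. Of these, 8 of the higher and 9 of the lower rows were listed at 0 in the other treatment. The share over the whole table was not computed at this setting, so the excess of lower rows cannot be judged. This setting and the mark OK were chosen after seeing the data.

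The median log2 ratio of 0.23 turned to -1.10 with no minimum, -0.44 without shared loci and -0.43 for rows marked OK. It was 0.21 with a pseudocount of 1 FPKM, 0.26 with the median of all rows, -0.04, set to 0, and 0.29 with FPKM totals made equal. With the pseudocount of 1 FPKM, 6 of the 13 rows were past 2-fold, and none of the 13 changed direction under that setting or the centring. The median of the mean FPKM of detected rows, 2.74, was 2.21 without shared loci, 1.74 for loci under 300 bp and 3.24 for longer ones. The cause of these shifts was not tested.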
